A study of Mus musculus with 6 samples.

Results

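AP-1 and Egr transcription factors were followed at the RNA level in NIH-3T3 cells, an established mouse fibroblast line, after guides against pyruvate carboxylase. The 10 genes are the Fos family (Fos, Fosb, Fosl1 and Fosl2), the Jun family (Jun, Junb and Jund) and the Egr family (Egr1, Egr2 and Egr3). They were chosen by symbol from the 16540 genes listed in the deposited table, and all 10 were listed and passed the filter on low values. The groups were PC sg2 (n = 2 libraries), PC sg5 (n = 2) and the control guide R26 sg1 (n = 2). All cells received lentivirus for Cas9 and a guide, were selected with 2 ug/mL puromycin, were used as uncloned pools, and were kept for 48 h at 0.2 mM glutamine with dialyzed serum at 10%. The sources used here do not say that both libraries of 1 guide are separate cultures, so the p-values cover no more than the spread between libraries, and that spread may be technical.

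AP-1 is a dimer that binds DNA through basic leucine zippers. Jun proteins pair with each other or with Fos proteins, whereas Fos proteins need a Jun or another partner. Egr proteins bind DNA through zinc fingers. In fibroblasts Fos, Fosb, Jun, Junb, Egr1, Egr2 and Egr3 are known as immediate early genes, whose RNA rises within minutes of serum or growth factor addition and decays quickly. Fosl1 and Fosl2, which encode Fra-1 and Fra-2 and lack the transactivation domain of Fos, are known as later members with longer-lived expression while MAP kinase signalling lasts.

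The shallowest library, PC sg5 replicate 2, had 22895172 recovered reads and the deepest, R26 sg1 replicate 2, had 71710049, and the 3-read floor lay between 2.18 and 6.41 normalised counts per library, for counting error only. The targeted gene Pcx had 316 and 375 normalised counts in PC sg2 cells, 713 and 716 in PC sg5 cells and 2914 and 3015 in R26 sg1 cells. Of 8 fibroblast markers 7 were tested, including Col1a1, Col1a2 and Vim, and all 7 fell, with a summed level of 439631 to 452059 normalised counts in the PC libraries and 1015990 to 1055930 in the controls. In bulk RNA fewer cells of a type and less RNA per cell cannot be told apart. Among 5 leukocyte markers 3 were listed, with a sum of 574 to 612 normalised counts in PC libraries and 908 to 953 in controls. Of these, Cd74 and Lyz2 fell, while Cd68 had a log2 fold change of 0.01 ± 0.24 (SE). Cdh1 of 4 epithelial, Pecam1 of 3 endothelial, Des of 3 muscle and Fabp4 of 3 adipocyte markers were listed, each with at most 90.6 normalised counts in any library. Of these scarce markers, Cdh1, Des and Fabp4 also fell, and Pecam1 did not pass. The part of these shifts in the results was not tested.

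The members moved in opposite directions within the Fos family, in 1 direction in the Egr family and by little in the Jun family. With both PC guides together against R26 sg1, Fosl1, Fosl2 and Jund rose, and Fos, Fosb, Jun, Junb, Egr1 and Egr2 fell, while Egr3 did not pass. Thus 9 of 10 members passed a limma Benjamini-Hochberg adjusted p of 0.05, in a comparison where 67.9% of the 16526 tested genes passed. The 3 that rose stand beside 34.3% of all tested genes, and the 6 that fell beside 33.6%. A change of at least 2-fold was called for 5 of the 10 members, against 17.8% of all tested genes: 1 was higher (6.48% of all) and 4 were lower (11.3% of all). The members were chosen with earlier results of these data known, so a share above that of all genes is not independent support. The median log2 fold change over the 10 members was -0.32, beside -0.01 over all tested genes. Groups did not overlap for 9 of 10 members, a pattern seen in 73.2% of the tested genes. All PC libraries were above both controls for 3 members and for 36.6% of all genes, and below both for 6 members and for 36.6% of all genes. Fold changes are on the log2(normalised count + 1) scale, which understates changes of low genes.

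**Figure D1:**
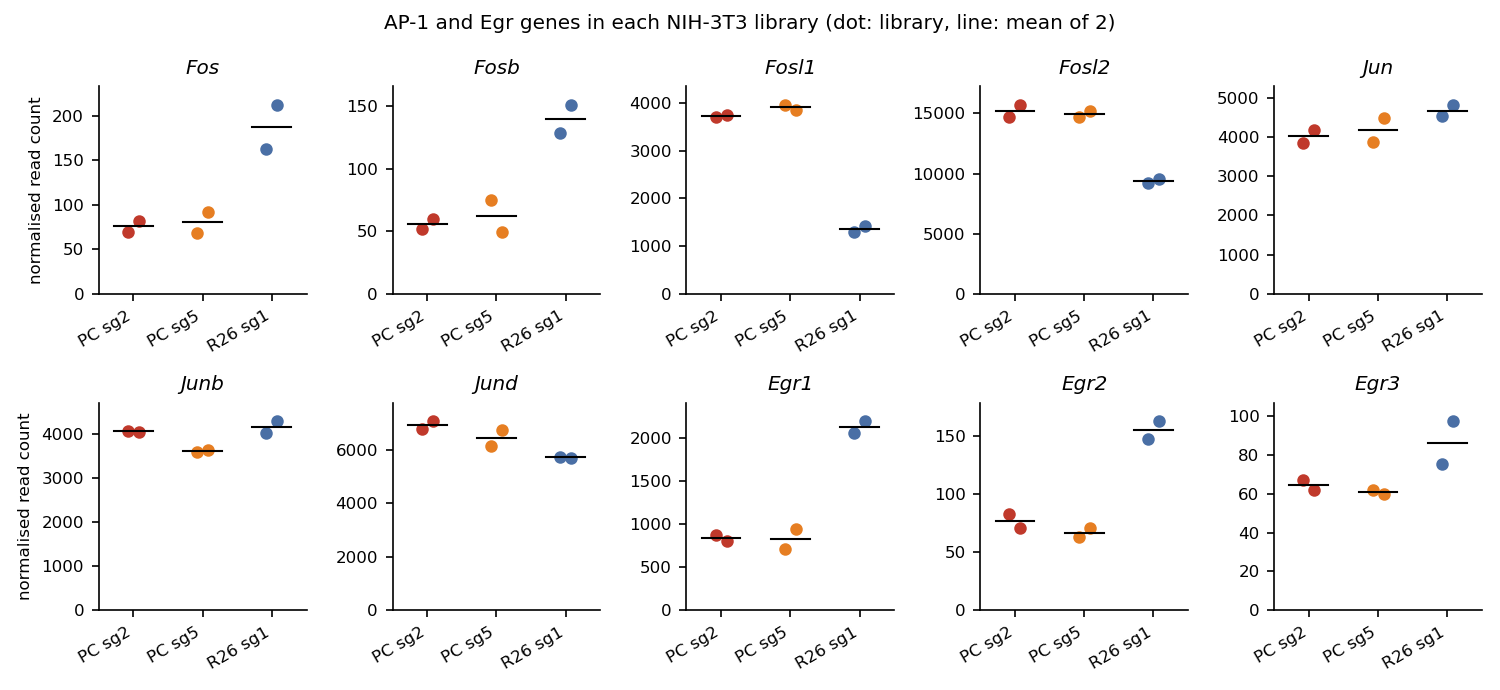
Normalised read count (vertical axis, linear from 0) of each member in the 2 libraries of PC sg2, PC sg5 and R26 sg1, with dots for libraries and a line for their mean. Fosl1, Fosl2 and Jund are higher in all 4 PC libraries than in both controls, Fos, Fosb, Jun, Egr1, Egr2 and Egr3 are lower in all 4, and Junb overlaps.

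The sequence before the start site is shown for Fos, Fosb and Egr2, because these immediate early genes fell together, and for Jun, because its small change contrasts with theirs. RefSeq windows on build GRCm38.p6 matched 7 of the 10 members, and Fosl1, Egr1 and Egr3 had none. The windows are the 250 bases before the start, written 5′ to 3′ on the gene's strand, at chr12:85473640-85473889 (plus strand), chr7:19310046-19310295 (minus strand), chr10:67537619-67537868 (plus strand, the window of 5 nearest to the principal start in GENCODE M21) and chr4:95052223-95052472 (minus strand). Capitals mark matches on either strand to TGANTCA (the AP-1 site), TGACNTCA (the CRE-like site, which does not overlap the first motif in these windows), GCGNGGGCG (the Egr site) or the CArG box, the site of serum response factor.
Fos: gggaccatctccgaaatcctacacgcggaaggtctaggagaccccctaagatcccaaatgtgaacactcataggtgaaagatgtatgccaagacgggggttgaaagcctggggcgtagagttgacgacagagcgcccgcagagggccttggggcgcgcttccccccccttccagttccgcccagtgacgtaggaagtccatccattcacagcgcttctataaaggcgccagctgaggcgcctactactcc
Fosb: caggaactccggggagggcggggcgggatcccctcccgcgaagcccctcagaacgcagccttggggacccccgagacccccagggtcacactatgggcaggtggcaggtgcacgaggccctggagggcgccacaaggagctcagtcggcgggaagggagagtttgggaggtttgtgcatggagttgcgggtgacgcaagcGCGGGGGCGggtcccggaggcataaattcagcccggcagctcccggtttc
Egr2: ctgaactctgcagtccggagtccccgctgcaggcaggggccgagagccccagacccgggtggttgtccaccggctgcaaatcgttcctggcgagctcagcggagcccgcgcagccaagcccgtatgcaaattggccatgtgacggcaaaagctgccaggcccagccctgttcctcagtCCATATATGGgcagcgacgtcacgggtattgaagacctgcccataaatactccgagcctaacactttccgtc
Jun: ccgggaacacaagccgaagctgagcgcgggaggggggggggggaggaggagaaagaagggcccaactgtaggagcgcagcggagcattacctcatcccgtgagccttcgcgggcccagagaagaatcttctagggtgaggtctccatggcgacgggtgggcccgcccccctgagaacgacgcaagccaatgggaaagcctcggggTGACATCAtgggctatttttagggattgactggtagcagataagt
Egr2 held a CArG box 72 to 63 bases before its start, a motif found in 1.47% of all 32851 windows of that length. Jun held TGACATCA, a match to TGACNTCA, 45 to 38 bases before its start, and that motif occurs in 7.49% of windows. Fosb held GCGNGGGCG, as did Fosl2, and 4.70% of windows do. Fos had no exact match to these motifs within the 250 bases, and sequence farther upstream was not searched. TGANTCA was in none of the 7 members' windows, against 6.75% of all windows, and 7 windows are too few to set against that share. The RefSeq starts of Fosl2 and Jund lay 671 and 1210 bases from the principal starts in GENCODE M21. Their windows are therefore not the bases just before those principal starts. A match is a description of letters and not a bound site.

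Fosl1 had the largest rise among the members. It encodes Fra-1, a partner of Jun proteins that is itself known as an AP-1 target. Fosl1 had 3711 and 3758 normalised counts in PC sg2 cells and 3961 and 3862 in PC sg5 cells, against 1295 and 1428 in R26 sg1 cells. All 4 PC libraries stood above both controls, and the spread within each guide was small beside the gap. The log2 fold change of both guides was 1.49 ± 0.04 (SE; 95% interval 1.40 to 1.58; adjusted p = 1.32e-17 by limma), a 2.81-fold difference, and 2.71% of tested genes had a higher one. Its adjusted p was 0.000238 by limma without the intensity trend, so the size of that p depends on this setting. Fosl1 lies on GRCm38 chromosome 19 (5447547 to 5455946, plus strand), and 57.2% of its exon bases are shared with Ccdc85b on the other strand. Whether counting used the strand is not given in the sources used here, so reads from the shared bases cannot be told apart. Ccdc85b had 1977 to 2255 normalised counts in the 4 PC libraries and 3136 and 3341 in the controls, a log2 fold change of -0.62 ± 0.05 (SE), which is opposite in sign to that of Fosl1.

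Fosl2, which encodes Fra-2, had the highest count of the family. It had 14726 and 15715 normalised counts in PC sg2 cells and 14713 and 15221 in PC sg5 cells, against 9236 and 9538 in R26 sg1 cells. The groups did not overlap, and the log2 fold change was 0.68 ± 0.03 (SE; adjusted p = 7.75e-15 by limma). Its exons on chromosome 5 (32135801 to 32157842, plus strand) share no bases with another annotated gene.

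Fos and Fosb, the members best known as immediate early genes, fell and were scarce in all 6 libraries. Fos had 70.1 and 81.9 normalised counts in PC sg2 cells and 68.8 and 91.9 in PC sg5 cells, against 163 and 212 in R26 sg1 cells. Fosb had 51.4 and 59.5 in PC sg2 cells and 74.9 and 49.2 in PC sg5 cells, against 128 and 151 in R26 sg1 cells. For both genes every PC library was below both controls. The PC means were 41.6% of the control mean for Fos and 42.1% for Fosb. Their log2 fold changes were -1.25 ± 0.20 (SE; adjusted p = 8.92e-06 by limma) and -1.25 ± 0.23 (SE; adjusted p = 5.06e-05). Few reads stand behind these values: PC sg5 replicate 2 had 43 recovered reads for Fos and 23 for Fosb. Fos lies on chromosome 12 (85473890 to 85477273, plus strand) and Fosb on chromosome 7 (19302696 to 19310051, minus strand), with no shared exon bases.

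Among the Egr genes, Egr1 changed with the smallest error. Egr1 is the family member best known from serum-stimulated fibroblasts, where it is induced through serum response factor and its ETS partners. It had 873 and 802 normalised counts in PC sg2 cells and 709 and 947 in PC sg5 cells, against 2056 and 2191 in R26 sg1 cells. No PC library came near the controls, although the PC sg5 libraries differed from each other more than those of PC sg2. The log2 fold change was -1.36 ± 0.08 (SE; 95% interval -1.53 to -1.18; adjusted p = 2.72e-12 by limma), which leaves 39.2% of the control mean, and 7.25% of tested genes had a lower one. Its adjusted p was 0.00188 by limma without the intensity trend. Egr1 lies on chromosome 18 and shares no exon bases with another gene.

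Egr2, a zinc finger factor known for its role in myelinating Schwann cells, had 82.6 and 71.2 normalised counts in PC sg2 cells and 62.7 and 70.5 in PC sg5 cells, against 148 and 162 in R26 sg1 cells. The 2 groups were separate, with a log2 fold change of -1.11 ± 0.20 (SE; adjusted p = 3.59e-05 by limma). Egr3 had 67.0 and 61.7 normalised counts in PC sg2 cells and 61.7 and 59.9 in PC sg5 cells, against 75.3 and 97.2 in R26 sg1 cells. All PC libraries were below both controls, but the controls differed by more than the gap between the lower control and the PC libraries. The log2 fold change of Egr3 was -0.45 ± 0.23 (SE; 95% interval -0.92 to 0.03; adjusted p = 0.0872 by limma), so a change of the size seen in Egr1 lay outside its interval. Without the intensity trend its adjusted p was 0.0334, within a range of 0.0334 to 0.494 over the alternatives run. The log2 fold change of Egr3 was -0.27 without R26 sg1 replicate 2 and -0.63 without R26 sg1 replicate 1. Egr2 lies on chromosome 10 (67535475 to 67542188, plus strand) and Egr3 on chromosome 14 (70077203 to 70082614, plus strand).

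The Jun genes, which supply the obligatory partners, changed least, with PC means between 87.6% and 117% of the control means. Jund, whose level is known to respond little to growth factors, had 6766 and 7059 normalised counts in PC sg2 cells and 6130 and 6746 in PC sg5 cells, against 5731 and 5705 in R26 sg1 cells. It rose by 0.22 ± 0.04 on the log2 scale (SE; adjusted p = 1.49e-05 by limma), with all PC libraries above both controls. Gm11175, an annotated antisense gene that is not analysed here, shares 52.6% of the exon bases of Jund (chromosome 8, 70698949 to 70700616, plus strand), so its reads are uncertain in the same way as those of Fosl1.

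Jun had 3852 and 4183 normalised counts in PC sg2 cells and 3868 and 4476 in PC sg5 cells, against 4526 and 4818 in R26 sg1 cells. All PC libraries were below both controls, with PC sg5 replicate 2 close to the lower control. The log2 fold change was -0.19 ± 0.05 (SE; adjusted p = 0.00152 by limma). Without R26 sg1 replicate 2 the adjusted p was 0.0543 and without the intensity trend 0.114, in a range of 1.39e-05 to 0.114 over the alternatives. Junb, known to oppose Jun at some promoters, had 4072 and 4055 normalised counts in PC sg2 cells and 3605 and 3642 in PC sg5 cells, against 4036 and 4290 in R26 sg1 cells. The PC sg2 libraries lay between the controls and only the PC sg5 libraries lay below both. The log2 fold change of Junb for both guides was -0.12 ± 0.04 (SE; adjusted p = 0.00831 by limma). It was -0.07 without R26 sg1 replicate 2 (adjusted p = 0.210) and -0.07 when libraries were scaled to totals without the 50 most abundant genes (adjusted p = 0.0870). Without the intensity trend the adjusted p was 0.0647, and over the alternatives it ranged from 0.00144 to 0.210. Exon overlap covers 7.28% of Jun (chromosome 4, 95049034 to 95052222, minus strand) with Junos and 7.52% of Junb (chromosome 8, 84974484 to 84978718, minus strand) with Prdx2. Junos and Prdx2 had log2 fold changes of -0.58 ± 0.15 and -0.28 ± 0.03 (SE), the same sign as those of Jun and Junb. Reads from these shared bases cannot be told apart either, and their part in the small changes was not tested.

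One library moved with several of these values. R26 sg1 replicate 2 was above R26 sg1 replicate 1 for 9 of 10 members, whereas 51.6% of all tested genes were higher in that library. The exception was Jund. Among the PC libraries, PC sg5 replicate 2 was above PC sg5 replicate 1 for 7 of 10 members (48.8% of all genes), and PC sg2 replicate 2 above PC sg2 replicate 1 for 6 of 10 (50.7% of all genes). Without R26 sg1 replicate 2, 7 of the 9 calls for both guides held and those of Jun and Junb did not. The part of this library in the results was not tested further.

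Each guide on its own gave nearly the same calls. With PC sg2, 3 members rose, 5 fell and Junb and Egr3 did not pass, against 64.5% of tested genes called (32.9% higher and 31.6% lower). With PC sg5, 3 rose, 6 fell and Egr3 did not pass, also against 64.5% of tested genes (32.6% higher and 31.8% lower). These comparisons share the control libraries, all of 1 control guide. A trait particular to the R26 sg1 cells cannot be told apart from an effect of the PC guides. The log2 fold changes with PC sg2 and with PC sg5 were 1.46 and 1.52 for Fosl1, 0.70 and 0.67 for Fosl2, and 0.27 and 0.17 for Jund. They were -1.34 and -1.37 for Egr1, -1.29 and -1.22 for Fos, -1.31 and -1.18 for Fosb, and -1.004 and -1.21 for Egr2. For Jun they were -0.22 and -0.17 and for Junb -0.03 and -0.20. With DESeq2 Jun passed with neither guide (adjusted p = 0.0544 with PC sg2 and 0.159 with PC sg5). Without PC sg2 replicate 1 its adjusted p with PC sg2 was 0.0560. Single libraries also decided other small values: without PC sg5 replicate 1 the PC sg5 change of Jun was -0.06 (adjusted p = 0.351, in a range of 0.000242 to 0.351), and without PC sg5 replicate 2 that of Jund was 0.10 (adjusted p = 0.0507, in a range of 6.60e-05 to 0.0828).

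**Figure D2:**
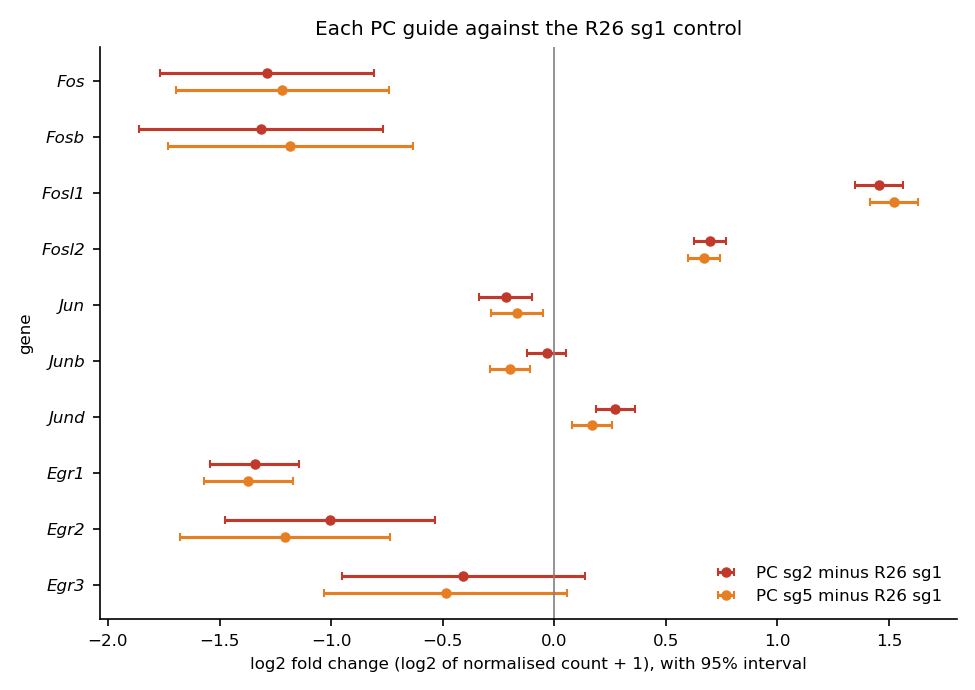
Log2 fold change of each member for PC sg2 and for PC sg5 against R26 sg1 (horizontal axis; points are limma estimates and bars 95% intervals). The intervals of both guides lie above 0 for Fosl1, Fosl2 and Jund and below 0 for Fos, Fosb, Jun, Egr1 and Egr2, and include 0 for Egr3 with both guides and for Junb with PC sg2.

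PC sg5 against PC sg2 tests the difference between the guides directly, and Pcx itself was higher with PC sg5 by 1.05 ± 0.08 (SE) on the log2 scale. None of the 10 members passed in this comparison by limma or edgeR, and 0.242% of all tested genes did by limma. DESeq2 gave an adjusted p for Fosl2, Jun, Junb and Jund only, none of which passed, and none for the other 6 members. At an unadjusted p under 0.05, 2 members were counted by each of the 3 tools. Intervals were narrow for the abundant genes and wide for the scarce ones: the 95% interval of the log2 difference was -0.04 to 0.17 for Fosl1, -0.10 to 0.05 for Fosl2 and -0.23 to 0.17 for Egr1, but -0.41 to 0.55 for Fos and -0.42 to 0.68 for Fosb. Junb had a difference of -0.17 (95% interval -0.25 to -0.08; adjusted p = 0.114 by limma), and it passed when the replicate number was a block (adjusted p = 0.0412, in a range of 0.0412 to 0.628 over the alternatives). Jund had a difference of -0.10 (95% interval -0.19 to -0.02; adjusted p = 0.367 by limma). The difference of Jund was -0.0348 without PC sg5 replicate 1 and -0.173 without PC sg5 replicate 2.

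Levels can be set side by side only per length, so normalised counts were divided by the kilobases of annotated exon. On this scale Jund led in every library, with 4002 ± 234 per kb (SD, n = 4) in PC libraries and 3428 ± 10.9 per kb (SD, n = 2) in controls. In PC libraries Fosl1 followed at 1881 ± 54.9 per kb, then Junb (1670 ± 111), Fosl2 (1559 ± 49.3), Jun (1284 ± 92.9) and Egr1 (186 ± 22.6). In controls the order after Jund was Junb (1809 ± 78.0 per kb), Jun (1465 ± 64.7), Fosl2 (970 ± 22.1), Fosl1 (670 ± 46.1) and Egr1 (474 ± 21.3). The ranges of Junb and Fosl2 overlapped in PC libraries, while no neighbours among these 6 genes overlapped in controls. Fos, Egr2, Egr3 and Fosb were the lowest of the 10 in both groups, with at most 90.3 per kb in any library. Among 16491 annotated genes Fosl1 stood at percentile 92.1 in PC libraries and 75.8 in controls, and Fos at 24.8 in PC libraries and 34.1 in controls. How the counting treated bases shared by genes could change the levels of Fosl1 and Jund.

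The make-up of the Fos family differed between the groups. Fosl1 made up 52.6% to 55.5% of the family's summed level per kb in the 4 PC libraries, against 37.9% and 39.0% in the controls. Fosl2 made up 43.3% to 46.2% in PC libraries and 56.7% and 54.7% in controls, so its share was lower although its level was higher. Fos and Fosb were minor parts of the family, and Fos gave 0.833% to 1.11% in PC libraries and 4.13% and 5.01% in controls. The summed level of the family was 3483 ± 65.3 per kb (SD, n = 4) in PC libraries and 1742 ± 85.5 (SD, n = 2) in controls. For the Jun family the sum was 6956 ± 358 per kb in PC libraries and 6702 ± 132 in controls, a difference within 1 SD of the PC libraries, and Jund contributed 56.9% to 57.9% in PC libraries and 52.0% and 50.3% in controls. The Egr family summed to 221 ± 24.2 per kb in PC libraries and 539 ± 27.9 in controls, with Egr1 at 83.0% to 86.0% in PC libraries and 88.3% and 87.5% in controls. These sums describe the chosen genes and carry no test. The shares and sums of the Fos and Jun families also depend on how bases shared by genes were counted for Fosl1 and Jund.

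**Figure D3:**
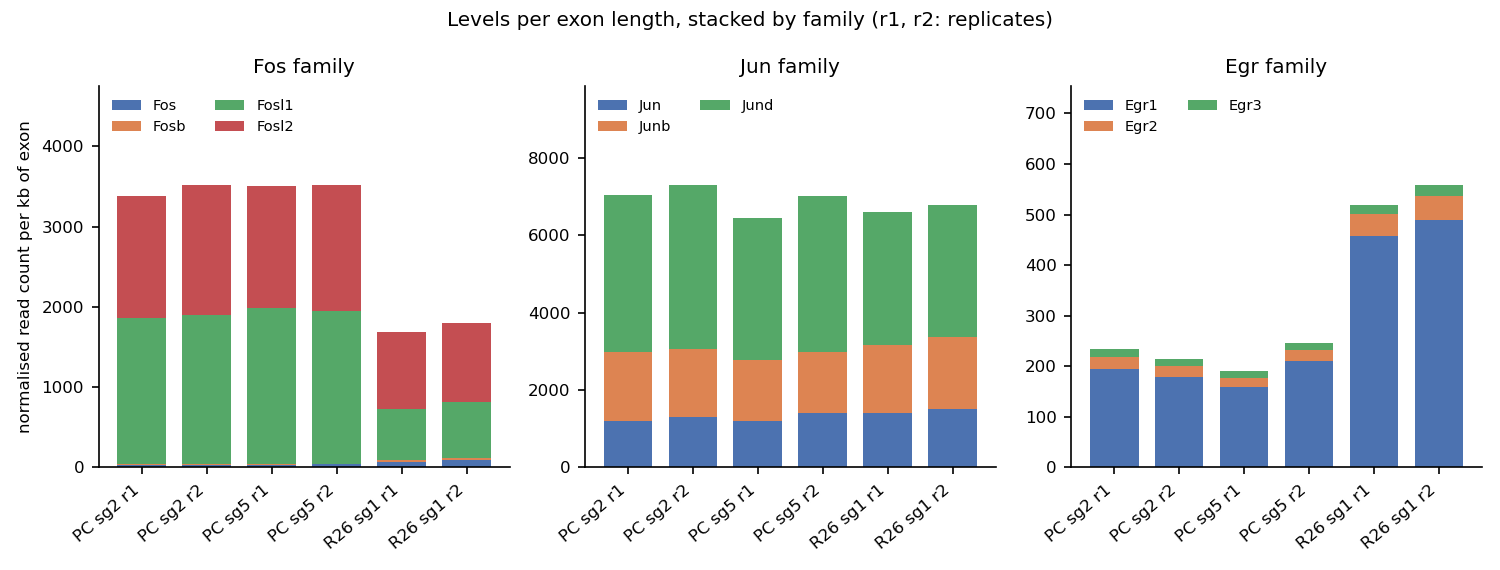
Normalised read count per kb of exon (vertical axis, linear from 0) for the Fos, Jun and Egr families in each of the 6 libraries, stacked by gene. The Fos family bars are higher in PC libraries through Fosl1 and Fosl2, the Jun family bars differ little, and the Egr family bars are lower in PC libraries, mostly in Egr1.

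Counts for the related gene lists stand beside 67.9% of all tested genes called, 34.3% higher and 33.6% lower. Of 12 other bZIP partners listed, 10 were tested, of which 6 rose, 3 fell and 1 did not pass (median 0.35). Atf3, a stress-induced partner of Jun proteins, rose by 3.68 ± 0.07 on the log2 scale (SE), with 2415 ± 150 normalised counts (SD, n = 4) in PC libraries and 189 ± 28.7 (SD, n = 2) in controls. The small Maf gene Maff rose by 1.02, while Maf, a large Maf gene, fell by 0.35. Nab1 and Nab2, which encode corepressors that bind Egr proteins, had log2 fold changes of -0.49 ± 0.04 and -0.93 ± 0.04 (SE), and both fell. Nab2 is itself known as an Egr target, and other genes share 42.2% of its exon bases. Egr4 is not analysed here.

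Upstream of the members, 5 of 10 genes for SRF, its partners, CREB and MEF2 factors rose, 4 fell and 1 did not pass (median 0.04), beside 34.3% higher and 33.6% lower among all tested genes. The SRF coactivator gene Mrtfa fell by 0.49 and the ETS factor gene Elk3 by 0.46, and Srf itself had a log2 fold change of -0.21. Mef2a and Creb1 rose by 0.63 and 0.45. Of 15 genes for ERK, JNK and p38 kinases 5 rose, 8 fell and 2 did not pass (median -0.10), beside the same shares of all genes. Map2k6, an activator of p38, fell by 2.09 and Mapk3, which encodes ERK1, by 0.95. Map2k1 and Rps6ka3 rose by 0.30 and 0.25. Of 9 genes for decay of AP-1 RNA or turnover of its proteins 5 rose, 3 fell and 1 did not pass (median 0.09), again beside 34.3% and 33.6%. Zfp36l1 and Zfp36, which encode proteins that bind AU-rich RNA, fell by 1.27 and 0.36, with 55.9% of the exon bases of Zfp36l1 shared with Gm26669. The ubiquitin ligase genes Cop1 and Fbxw7, whose products are known to act on Jun, rose by 0.42 and 0.35.

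Of 15 known AP-1 targets tested 5 rose, 9 fell and 1 did not pass (median -0.53), beside 34.3% of all tested genes higher and 33.6% lower. Hbegf, a ligand of the EGF receptor, rose by 1.51 ± 0.08 (SE) and the heme oxygenase gene Hmox1 by 1.51 ± 0.03, while the gelatinase gene Mmp9 fell by 2.61 ± 0.08 and the urokinase gene Plau by 1.52 ± 0.07. Mmp9 had 325 ± 12.3 normalised counts (SD, n = 4) in PC libraries and 1989 ± 5.80 (SD, n = 2) in controls. Of 10 Egr targets 2 rose, 5 fell and 3 did not pass (median -0.42), beside the same shares of all genes. Thbs1, the thrombospondin gene, fell by 1.12 ± 0.02 (SE) and the growth factor gene Pdgfb by 1.46 ± 0.17, while Vegfa and F3 rose by 0.50 and 0.18.

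Of 22 other immediate early genes tested, 15 rose, 6 fell and 1 did not pass, with a median of 0.47, beside 34.3% of all tested genes higher and 33.6% lower. Atf3 and Myc rose most in this list, Myc by 2.89 ± 0.03 (SE) to 20634 ± 206 normalised counts (SD, n = 4) in PC libraries, against 2788 ± 185 (SD, n = 2) in controls. Arc, a gene best known from neurons, and Btg2, an antiproliferative gene, both fell, with log2 fold changes of -1.83 ± 0.22 and -1.29 ± 0.06 (SE). Atf3, Maff, Srf, Zfp36 and Nab2 each stand in more than 1 list, and Vim stands among both the fibroblast markers and the AP-1 targets. Medians over all tested genes were -0.01 in this comparison, and no list was tested as a set.

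**Figure D4:**
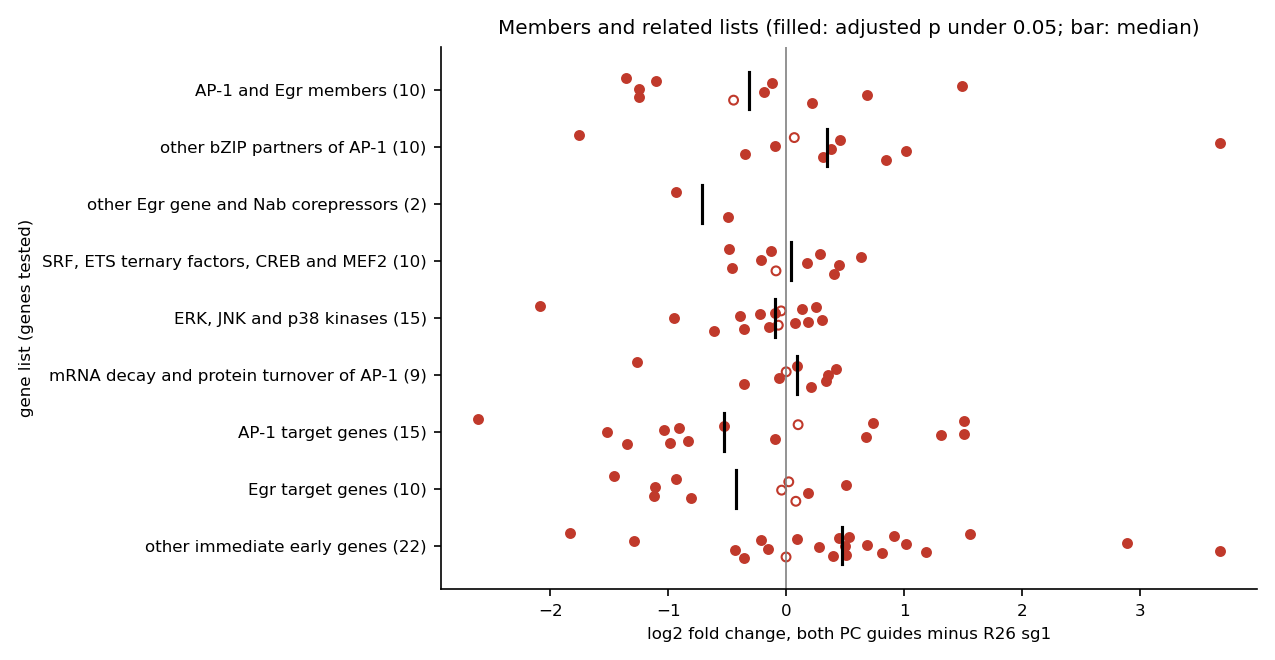
Log2 fold change of both PC guides against R26 sg1 (horizontal axis) for the members and for each related gene list (rows, with genes tested in brackets). Filled dots passed an adjusted p of 0.05, open dots did not, and bars are list medians, which run from -0.71 for the Nab genes to 0.47 for other immediate early genes.

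The genes whose pattern over the 6 libraries lay nearest to that of Fosl1, by the root mean square difference of centred log2 values among the 9448 genes averaging 500 or more normalised counts, were Pogk (0.03), Cited2 (0.04) and Nol8 (0.05). Their log2 fold changes were 1.48, 1.49 and 1.44. Nearest to Egr1, the member with the lowest fold change, were Nod1 (0.05), Fas (0.06) and Cxcl1 (0.07), with -1.36, -1.38 and -1.36. These distances are a description, and 6 libraries in 3 groups place many genes close together.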

How the data were processed

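RNA from 6 NIH-3T3 libraries was measured by sequencing of polyadenylated RNA. The authors deposited 1 table of normalised counts, a signal that equals reads over a library size factor, with no correction for gene length. Tools in the submitters' processing notes are STAR, featureCounts, DESeq2, Trimmomatic and bcl2fastq 2.17, with the build GRCm38. Annotation, settings and strand use are not given there. Within each library 100% of values above 0 were whole multiples of 1 step (tolerance 0.01), so reads were recovered, and edgeR on them called 11424 genes for both guides. The lowest total of a listed gene was 61 reads. IDs were matched to GENCODE M21 (GRCm38), and 16491 of 16540 received a symbol.

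A model of 3 groups over 6 libraries was fitted to log2(normalised count + 1) with limma 3.58.1 (R 4.3.3) and its intensity trend. P-values are two-sided and Benjamini-Hochberg adjusted over the 16526 genes that reached 10 normalised counts in 2 or more libraries (14 removed). Contrasts were both PC guides, and each, against R26 sg1, and PC sg5 against PC sg2. The threshold was an adjusted p of 0.05. Residual degrees of freedom were 3, with a median prior of 17.3. On simulated counts with 1 setting of spread for all genes, the model recovered 72% of 1.3-fold and 94% of 2-fold changes in the right direction. Far fewer genes changed in the simulation than were called in the data, so these percentages do not give the power reached here. Smaller changes, such as those of the Jun genes, were not simulated. Alternatives included edgeR 4.0.16 and DESeq2 1.42.0 on recovered reads. The members and lists were chosen with earlier results of these data known. All members are named, and from each list up to 2 called genes with the highest and 2 with the lowest fold change, except 1 that is not reported here. A few genes outside this rule (Srf and those overlapping members) were named after their values were seen. No outlier test was made with 2 libraries a group.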

Additional observations from a re-analysis of the deposited data

How the results depend on the processing

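Over 16 alternatives, the 30 log2 fold changes of members against R26 sg1 gave 480 values, of which 461 kept their direction and side of the threshold, 15 lost the call, 2 gained it and 2 changed sign. Lost calls concerned Jun, Junb and Jund, and gained ones Egr3. Both reversals were of Junb with PC sg2, which was not called: 0.0047 with library totals without the 50 most abundant genes, and -0.0783 to 0.00968 when single replicates were left out. Members called numbered 7 to 9 without single replicates for both guides, 7 to 8 for PC sg2 and 8 to 9 for PC sg5. For PC sg5 against PC sg2 the 40 genes called became 85 with DESeq2, 68 with edgeR, 65 for genes averaging at least 50 normalised counts, 65 with pseudocount 10 and 0 without the intensity trend (limma, 1241 at an unadjusted p under 0.05). Without PC sg2 replicate 1 or 2 they were 14 and 10, without PC sg5 replicate 1 or 2 they were 216 and 42, and without R26 sg1 replicate 1 or 2 they were 25 and 26. Uncalled members reversed there when single replicates were left out: Egr1 (-0.24 to 0.18), Fos (-0.14 to 0.28), Fosb (-0.17 to 0.43), Fosl2 (-0.0706 to 0.0232) and Jun (-0.0534 to 0.16). The causes were not tested. In the labels, samples with the same replicate number share only that number. Their deviations over all 16526 tested genes correlated at 0.03, -0.02 and 0.03 between groups. A correlation over all genes does not settle whether they were handled together. With the replicate block 160 genes and 1 member, Junb (adjusted p = 0.0412, in a range of 0.0412 to 0.628), were called for PC sg5 against PC sg2, and the block changed no other call of a member. Depth limits Fos, Fosb, Egr2 and Egr3 most, with 23 to 43 reads in PC sg5 replicate 2.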
